A study of Mus musculus with 6 samples.

Results

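The neutrophil-attracting CXC chemokines are a set of 8 genes, chosen by name from the 23282 genes listed in the deposited table of primary mouse hepatocytes. They are the ligands Cxcl1, Cxcl2, Cxcl3, Cxcl5, Cxcl15 and Ppbp, the related platelet chemokine Pf4, and the receptor Cxcr2. The hepatocytes came from collagenase-perfused livers of C57BL/6N mice and were left to attach for 3 h and then kept for 24 h either untreated (control, 3 samples) or with recombinant IL-1β (3 samples). All 6 samples share the genotype, the isolation and the plating, and the age of the mice and the number of livers are not given in the sources used here. The study states a dose for recombinant proteins in related hepatocyte cultures, but not separately for the sequenced ones. The series title calls the cells metabolically stressed, and the sample labels name no treatment other than IL-1β. RNA was sequenced by QuantSeq, a method that reads mRNAs from their 3′ end, and the question was how IL-1β changes the transcripts of hepatocytes.

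CXC chemokines are small secreted proteins. Those that carry the tripeptide glutamate-leucine-arginine before their first cysteines bind CXCR2, a receptor on neutrophils that couples to inhibitory G proteins and directs the cells along the ligand gradient. In the liver, IL-1 and other inflammatory signals act through NF-κB to switch such ligands on, and the mRNAs are short-lived because AU-rich elements in their 3′ untranslated regions bind destabilising proteins. Pf4 lacks the tripeptide and is not a classical CXCR2 agonist, although its gene lies among the ligand genes.

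All 7 chemokine genes lie on the plus strand of chromosome 5 (GRCm38), in the order Cxcl5, Ppbp, Pf4, Cxcl3, Cxcl15, Cxcl1 and Cxcl2, and the stretch from the start of Cxcl5 to the end of Cxcl2 spans 146.6 kb. Cxcl1, Cxcl2 and Cxcl3 had a match to the consensus NF-κB (κB) site in the promoter window around their starts. The promoters of these 3 genes and of Pf4, which rose with them but had no such match, are shown from RefSeq (GRCm38.p6, plus strand, 5′ to 3′), with the κB match in capitals. The windows are chr5:90891125-90891264 for Cxcl1, chr5:90903779-90903918 for Cxcl2, chr5:90785981-90786120 for Cxcl3 and chr5:90772315-90772454 for Pf4.
Cxcl1: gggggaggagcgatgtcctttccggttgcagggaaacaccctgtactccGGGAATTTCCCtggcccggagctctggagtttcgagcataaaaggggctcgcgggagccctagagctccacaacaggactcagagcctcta
Cxcl2: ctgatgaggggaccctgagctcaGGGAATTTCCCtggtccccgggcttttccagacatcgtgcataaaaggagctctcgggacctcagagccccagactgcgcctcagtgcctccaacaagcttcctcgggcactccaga
Cxcl3: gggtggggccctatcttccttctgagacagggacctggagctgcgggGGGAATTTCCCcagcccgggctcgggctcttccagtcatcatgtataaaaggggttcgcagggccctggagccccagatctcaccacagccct
Pf4: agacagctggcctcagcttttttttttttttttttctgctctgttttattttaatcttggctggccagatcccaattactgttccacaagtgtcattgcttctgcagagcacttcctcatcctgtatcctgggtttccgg
The capitals are the same run of letters in the 3 promoters, and it is made of a pair of overlapping 10-base matches on opposite strands. The run began 71 bases before the gene start in Cxcl1, 97 in Cxcl2 and 73 in Cxcl3.

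Of the 8 members, 7 had a promoter in the RefSeq table, all but Cxcl5. The consensus κB site, searched on both strands from 250 bases before to 50 bases after the start, occurred in 3 of these 7 and in 4.51% of the 32851 promoters of the table. Matches on both strands of a promoter occurred in the same 3 members and in 0.886% of all promoters. The shorter core GGNNNTTCC, which overlaps the consensus site, was found in the same 3 members and in 18.5% of all promoters. Each of the 3 held this core also at a place outside the run, which began 89 bases before the start in Cxcl1, 77 in Cxcl2 and 49 in Cxcl3. The exact letters of the TATA box, TATAAA, were present in Ppbp, Cxcl3 and Cxcl15 and in 13.6% of all promoters. The printed promoters of Cxcl1 and Cxcl2 hold CATAAA, which differs in the first letter and was not counted. The AP-1 motif TGANTCA was present in Ppbp alone among the 7, and in 7.81% of all promoters. The C/EBP motif TTGCNNAA was present in Pf4 alone among the 7, and in 10.8% of all promoters. The Cxcr2 promoter held none of the 5 motifs. These are matches of letters in a fixed window, and the libraries do not measure binding to them.

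**Figure D1:**
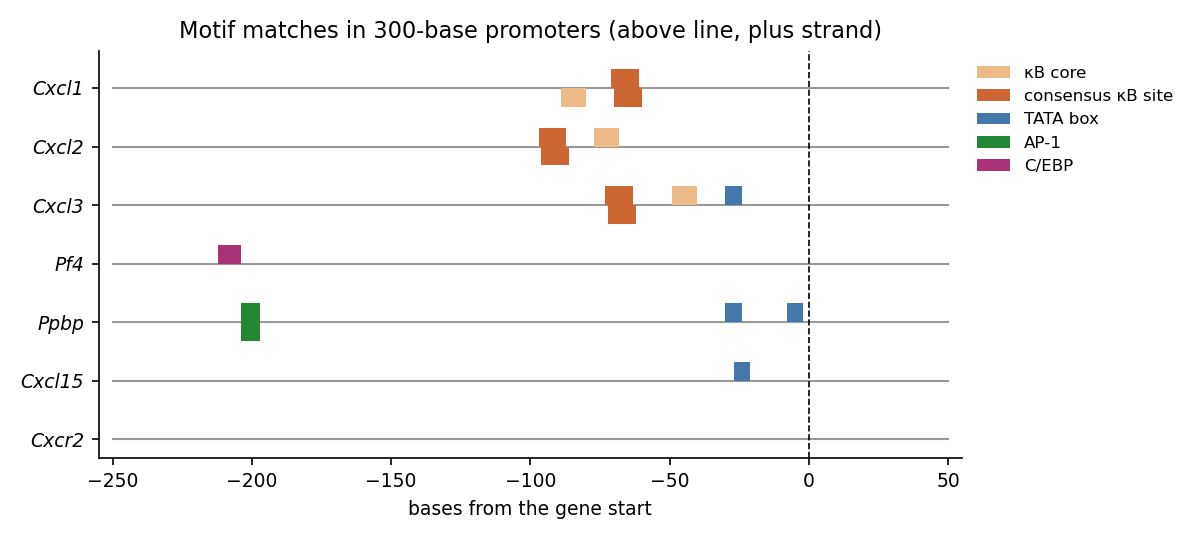
Motif matches in the promoters of 7 members, drawn by their distance in bases from the gene start, with plus-strand matches above and minus-strand matches below each line. Coloured boxes are the motifs named in the key. Consensus κB matches on both strands begin 71, 97 and 73 bases before the starts of Cxcl1, Cxcl2 and Cxcl3, and the other promoters have none.

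The 6 libraries held between 9538741 and 11105408 counts, of which the ribosomal RNA precursor Rn45s took 11.7% to 14.2%, and 3 counts in a single library corresponded to 0.269 to 0.321 CPM (counts divided by the TMM-adjusted library size, which corrects for composition). By edgeR's quasi-likelihood test, 1563 of 11657 genes tested differed between the groups at a Benjamini-Hochberg adjusted p below 0.05, which is 13.4% of them. They were 812 higher (6.97%) and 751 lower (6.44%), and with scaling by total counts the split was 662 higher and 1008 lower. Over all genes tested, the log2 fold change had a median of -0.0018. All 3 IL-1β samples lay above all 3 controls in 14% of the genes tested, and 0.1 is the lowest two-sided p that exact permutation can reach with 3 samples per group. Whether the samples came from separate animals or cultures is not given in the sources used here, so p-values measure the spread between these samples, which may be technical. Most listed hepatocyte genes were abundant. The 13 hepatocyte markers tested summed to between 41854 and 42674 CPM in controls and between 35495 and 37422 CPM after IL-1β. Alb alone had a mean of 16200 CPM in controls. Cps1 and Tat, named after their values were seen, had means of only 2.65 and 3.22 CPM there.

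IL-1β raised the transcripts of Cxcl1, Cxcl2, Cxcl3, Cxcl5 and Pf4, with the largest change in Cxcl5, while Cxcl15 and Ppbp had no read and Cxcr2 had at most 5 reads per library. Thus 5 of the 8 members were called higher and 0 lower, against 6.97% and 6.44% of the genes tested. Only 5 of the 8 passed the filter on low counts, and Cxcl3 and Pf4 passed through their counts in the IL-1β group. With 3 control reads in all, Pf4 could be called in no other direction. The members were chosen with earlier results of these data known, so the comparison with all genes is a description only. In RNA from a whole culture, more cells that express a gene and more RNA per cell cannot be told apart.

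**Figure D2:**
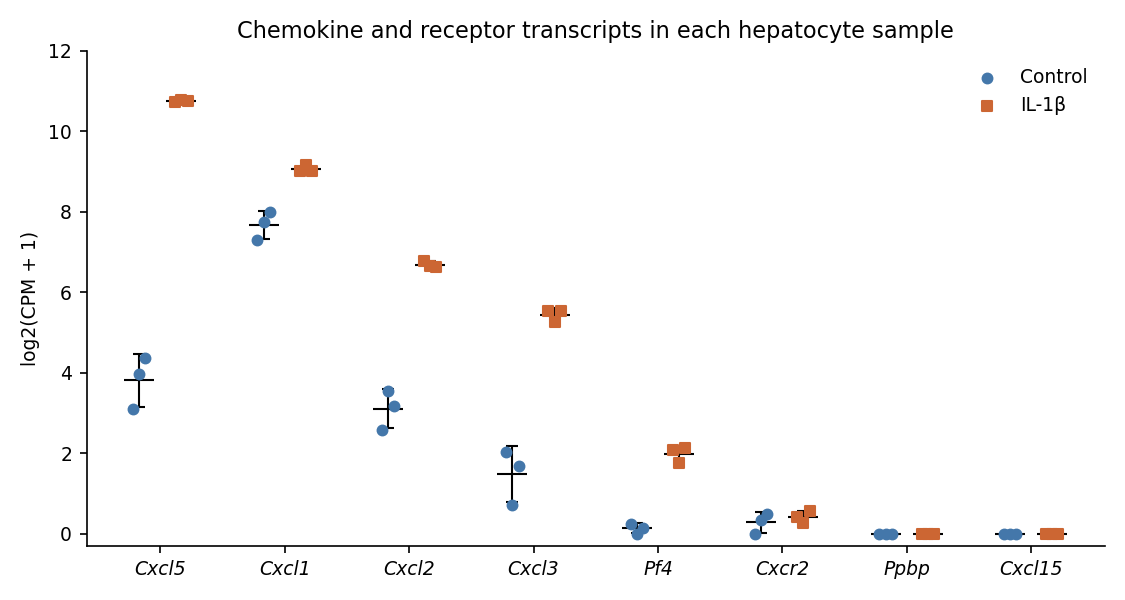
Level of each of the 8 members in each sample as log2(CPM + 1), with control samples as blue circles and IL-1β samples as orange squares. Black marks are the mean and SD of 3 samples. The groups are apart in Cxcl5, Cxcl1, Cxcl2, Cxcl3 and Pf4 and overlap in Cxcr2, and Ppbp and Cxcl15 are at 0 throughout.

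Cxcl5 encodes a CXCR2 ligand known in the mouse as LIX, and its gene (chr5:90759298-90761625, 4 exons) is the first of the cluster. Cxcl5 had 80, 164 and 195 reads in the controls and 15703, 18232 and 18374 after IL-1β. Every IL-1β library was far above every control, and the relative spread was wider among the controls. The control mean of 13.9 ± 6.10 CPM (SD, n = 3) became 1713 ± 36.6 CPM (SD, n = 3) after IL-1β, which is 123-fold. The log2 fold change was 6.95 (SE 0.155, adjusted p = 2.1e-20 from edgeR), and it ranked 6 among the genes tested when ordered from the highest.

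Cxcl1, the chemokine also called KC and a principal neutrophil attractant of the mouse, lies at chr5:90891245-90893115 in 4 exons. It was already well expressed in untreated hepatocytes, with 1671, 2378 and 2508 reads, against 4856, 5926 and 5512 after IL-1β. The groups did not overlap, and control sample 1 was the lowest of the controls. The mean was 207.5 ± 48.1 CPM (SD, n = 3) in controls and 533.6 ± 31.1 CPM (SD, n = 3) after IL-1β, 2.57-fold higher. The log2 fold change was 1.36 (SE 0.104, adjusted p = 2.5e-10 from edgeR). An unmoderated test on log2(CPM + 1), described with the alternatives, gave 1.38 with an adjusted p of 0.0517.

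Cxcl2, the ligand also called MIP-2, lies next to Cxcl1 at chr5:90903899-90905938 in 4 exons. Its reads numbered 53, 120 and 80 in the controls and 1023, 1028 and 1048 in the IL-1β libraries. The IL-1β samples were close to each other and all above the controls. The mean rose 12.8-fold, with 7.93 ± 2.88 CPM (SD, n = 3) in controls and 101.8 ± 6.54 CPM (SD, n = 3) after IL-1β, and with a log2 fold change of 3.68 (SE 0.151, adjusted p = 2.4e-15 from edgeR).

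Cxcl3, a close relative of Cxcl2 that also acts on CXCR2, lies at chr5:90786101-90788093 in 4 exons. The controls held 33, 7 and 22 reads and the IL-1β libraries 423, 390 and 489. Control sample 2 was the lowest, and no control came near the IL-1β samples. The mean rose 21.7-fold, with 1.98 ± 1.25 CPM (SD, n = 3) in controls and 42.7 ± 4.55 CPM (SD, n = 3) after IL-1β, and with a log2 fold change of 4.44 (SE 0.237, adjusted p = 2.6e-13 from edgeR).

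Pf4 encodes platelet factor 4, a heparin-binding chemokine stored in platelet granules, and lies at chr5:90772435-90773383 in 3 exons. Its reads were few, at 2, 0 and 1 in the controls and 30, 25 and 36 after IL-1β. All IL-1β samples were above all controls. The mean was 0.0962 ± 0.0940 CPM (SD, n = 3) in controls and 2.99 ± 0.510 CPM (SD, n = 3) after IL-1β. With 3 control reads in all, against 91, the ratio was 31.5 (95% exact counting interval 10.5 to 156, which covers counting error only). The log2 fold change in edgeR was 4.81 (SE 0.692, adjusted p = 1.3e-05). It was 5.65 without control sample 1, and 1.86 by limma on the log2(CPM + 1) scale, with an adjusted p of 0.00040.

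Beside Pf4 and Ppbp, 9 other platelet and megakaryocyte genes were listed. Of these, Gp9, Gp6 and Tubb1 had no read in any library, nor did Ppbp. The 9 genes summed to between 6.62 and 8.27 CPM in controls and between 5.67 and 6.51 CPM after IL-1β. Only Itga2b and Clec1b had enough reads to be tested, and neither passed the test (median log2 fold change -0.45). Which cells gave the Pf4 reads was not tested.

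Ppbp encodes the precursor of the platelet chemokine CXCL7, and lies at chr5:90768518-90770060 between Cxcl5 and Pf4. Cxcl15 encodes lungkine, a chemokine of the lung epithelium, and lies at chr5:90794534-90803067 between Cxcl3 and Cxcl1. Both had 0 counts in all 6 libraries. A count of 0 allows a level of up to 0.0945 CPM over the control group and 0.0983 CPM over the IL-1β group, at 3 counts per group. Expression of these members was not detectable at this depth.

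Cxcr2, the receptor of the ligands, lies on the plus strand of chromosome 1 at chr1:74153994-74161246. Its reads were 0, 3 and 4 in controls and 3, 2 and 5 after IL-1β, with overlapping groups. The mean was 0.224 ± 0.205 CPM (SD, n = 3) against 0.326 ± 0.136 CPM (SD, n = 3), too few reads for the filter. The summed reads, 7 against 10, gave a ratio of 1.49 (95% exact counting interval 0.510 to 4.60), and the exact permutation test gave a two-sided p of 0.6. Without a filter, edgeR gave a log2 fold change of 0.53 (adjusted p = 0.879), and -0.028 without control sample 1. A difference in Cxcr2 was not detectable at this depth.

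**Figure D3:**
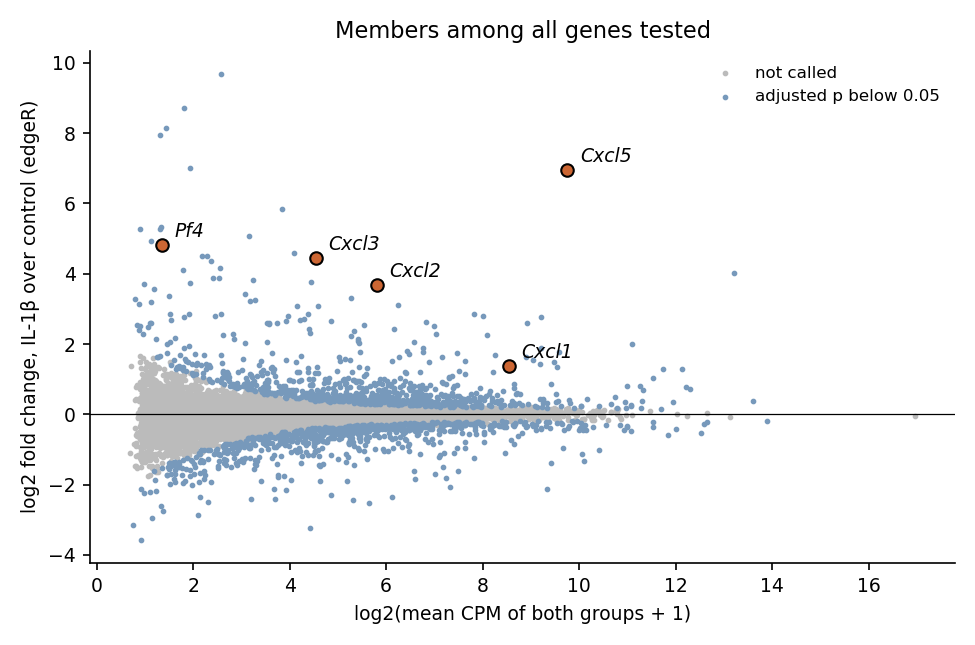
Log2 fold change of IL-1β over control against the mean level as log2(CPM + 1) for the 11657 genes tested, with 5 members as orange points. Grey points were not called and blue points had an adjusted p below 0.05. Cxcl5 (6.95) stands far to the right of the other genes with changes of its size, and Cxcl1 (1.36) has the smallest change of these 5.

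The make-up of the ligand pool changed with IL-1β. Cxcl1, Cxcl2, Cxcl3 and Cxcl5 together took 173, 239 and 283 CPM in the controls and 2352, 2457 and 2363 CPM after IL-1β. This was 0.0236 ± 0.00596% of a control library and 0.234 ± 0.00682% of an IL-1β library (SD, n = 3 each). QuantSeq yields about 1 read per transcript whatever its length, so shares are of undivided reads. Cxcl1 made up 89.8 ± 0.999% of the pool in controls, followed by Cxcl5 at 5.82 ± 1.33%, Cxcl2 at 3.41 ± 0.940% and Cxcl3 at 0.948 ± 0.780% (SD, n = 3). The control ranges of Cxcl5 and Cxcl2 overlapped. After IL-1β, Cxcl5 was at the head with 71.6 ± 0.550%, then Cxcl1 with 22.3 ± 0.773%, Cxcl2 with 4.26 ± 0.338% and Cxcl3 with 1.79 ± 0.230% (SD, n = 3). No neighbours in this order overlapped. Reads divided by transcript length are given as an alternative. By these, Cxcl5 took 3.44 ± 0.803% in controls and 59.7 ± 0.661% after IL-1β, and Cxcl1 took 92.6 ± 0.552% and 32.4 ± 1.03% (SD, n = 3).

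**Figure D4:**
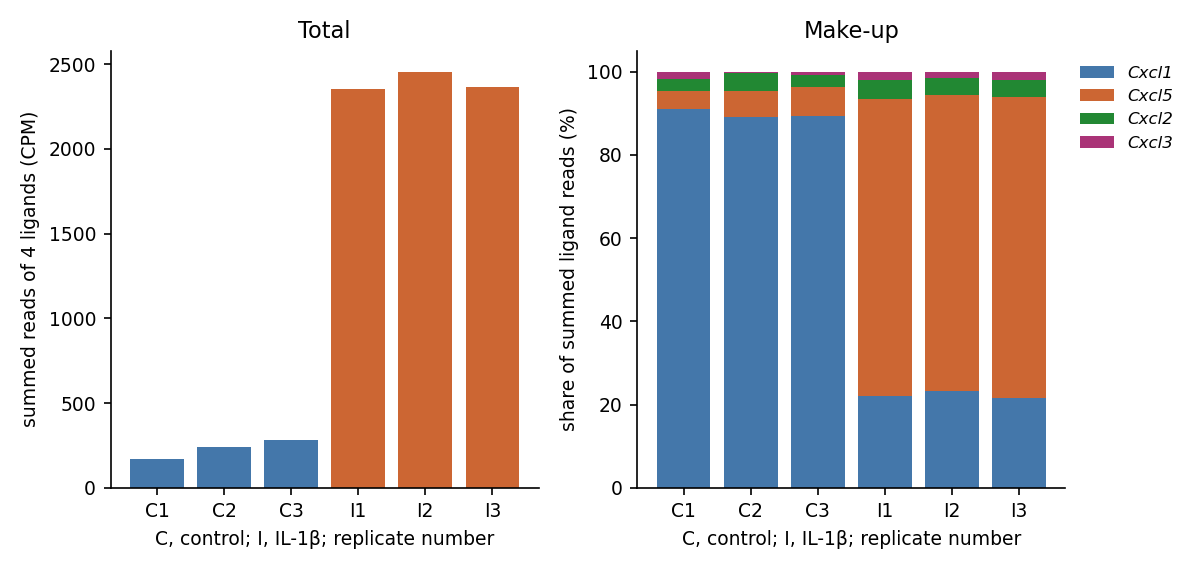
Summed reads on Cxcl1, Cxcl2, Cxcl3 and Cxcl5 in each sample in CPM (left) and the share of each ligand in them in percent, not divided by length (right). C1 to C3 are the controls and I1 to I3 the IL-1β samples. The sum is 173 to 283 CPM in controls and 2352 to 2457 CPM after IL-1β, and the main part is Cxcl1 in controls and Cxcl5 after IL-1β.

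For each 100 reads on Cxcl1, the controls held 4.79, 6.90 and 7.78 reads on Cxcl5, and the IL-1β samples held 323, 308 and 333. The log2 ratio of Cxcl5 to Cxcl1 was thus 5.66 higher after IL-1β. Of the 6 ratios between the 4 ligands, 5 did not overlap between the groups (p = 0.1 by exact two-sided permutation, the lowest value within reach, and 0.12 adjusted over the 6). The 6 ratios rest on the same 4 ligands and restate their fold changes, so they are not separate results. The share of other gene pairs whose ratios do not overlap was not computed. The shifts of the log2 ratios were 3.30 for Cxcl5 over Cxcl2, 2.34 for Cxcl5 over Cxcl3, 3.32 for Cxcl3 over Cxcl1 and 2.36 for Cxcl2 over Cxcl1. The exception was Cxcl3 over Cxcl2, whose log2 ratio was -2.22 ± 1.74 in controls and -1.26 ± 0.15 after IL-1β (SD, n = 3) with overlapping groups (p = 0.5 by exact two-sided permutation, 0.5 adjusted).

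Near-identical paralogs can share reads, so the last 500 nt of each member's GENCODE transcript was divided into 426 overlapping windows of 75 nt, the read length. In all 8 members, 0 windows occurred letter for letter in a transcript of any other gene. Windows that differ in some bases were not counted as shared, so reads aligned with mismatches are not covered. The 3′ untranslated regions differed in ATTTA, the core of AU-rich elements, a feature that was chosen after the data were seen. Cxcl2 had 11 copies in 734 nt, Cxcl1 7 in 592 nt, Cxcl3 5 in 645 nt and Cxcl5 5 in 1111 nt, where the median of 18985 untranslated regions was 1 copy. Per kb, these are 14.99, 11.8, 7.75 and 4.50 copies, densities reached by 0.506%, 0.990%, 2.83% and 9.73% of the regions. Pf4 had 1 copy in a short region of 123 nt, which is 8.13 per kb, a density reached by 2.49% of the regions. Ppbp had 1 copy, and Cxcl15 and Cxcr2 had 2 each. From the highest, the order of densities was Cxcl2, Cxcl1, Cxcl3 and Cxcl5, and that of the fold changes was Cxcl5, Cxcl3, Cxcl2 and Cxcl1. Among these 4, each order was the reverse of the other, but for the places of Cxcl1 and Cxcl2. Pf4, left out of both orders, did not follow this. It was above Cxcl3 both in density (8.13 against 7.75 per kb) and in log2 fold change (4.81 against 4.44). A relation between density and fold change was not tested.

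The genes around the cluster did not move in a common direction. Between Alb and Btc, 11 genes other than the members were listed, these flanking genes included. Of the 11, 9 were tested, and 2 were higher and 3 lower, with log2 fold changes from -1.06 to 1.53. The shares over all genes tested were 6.97% higher and 6.44% lower. Afp, the fetal serum protein, rose by 1.53 (adjusted p = 1.6e-09) and Rassf6 by 0.32 (adjusted p = 0.0436). Alb fell by 0.20, Areg by 0.68 and Btc by 1.06 on the log2 scale. The calls of Rassf6, Alb and Areg were lost when some single samples were left out, with adjusted p up to 0.196 (Rassf6, without any 1 sample other than control 1), 0.0894 (Alb, without control 2 or IL-1β 1) and 0.0646 (Areg, without control 1, IL-1β 2 or IL-1β 3). Within 100 kb of Cxcr2, 2 of 4 other genes were tested, and Tns1 fell by 0.78 while Arpc2 was at -0.031 (adjusted p = 0.833).

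**Figure D5:**
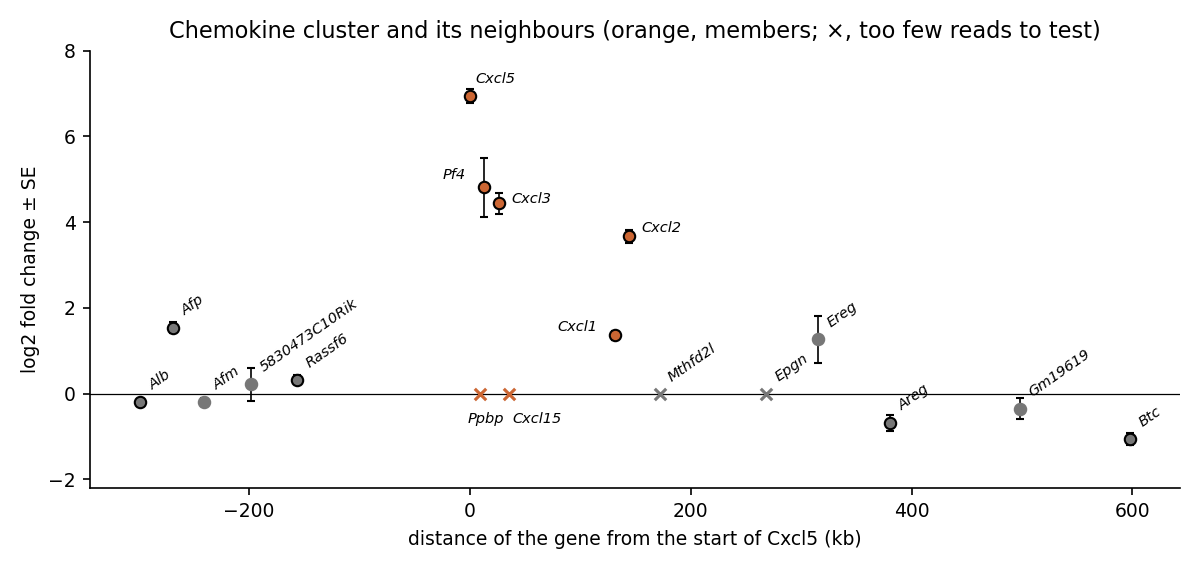
Log2 fold change with its SE for each gene between Alb and Btc, by distance in kb from the start of Cxcl5, with members in orange, other genes in grey and called genes outlined in black. Crosses on the zero line mark genes with too few reads to test. The 5 called members have changes from 1.36 to 6.95, and the other tested genes lie between -1.06 and 1.53.

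The other CXC and CX3C chemokines did not follow a common direction either. Of 9 listed, 5 were tested, 2 were higher and 2 lower, with a median log2 fold change of -1.14. The shares over all genes tested were 6.97% higher and 6.44% lower. Cxcl16, a membrane-bound ligand of CXCR6, rose with a log2 fold change of 0.80 (SE 0.072, adjusted p = 6.3e-09). Cxcl9 rose with a log2 fold change of 0.48, while Cxcl10, like Cxcl9 a T cell attractant that binds CXCR3, fell by 1.14 (adjusted p = 2.6e-06). Cxcl12, the ligand of CXCR4, fell by 1.96 on the log2 scale (adjusted p = 0.0066). Its reads were 37, 37 and 49 in controls and 18, 2 and 10 after IL-1β, and it passed the filter through the controls. The call of Cxcl9 was lost without control sample 2 or IL-1β sample 3 (adjusted p up to 0.0955), and that of Cxcl12 without IL-1β sample 2 (adjusted p = 0.0544). Of 9 other chemokine receptors and decoy receptors, 1 was tested, Cxcr5, with a log2 fold change of 0.24 (adjusted p = 0.796). Cxcr1, the other receptor for such ligands, had 1 count in 1 library, and Cxcr3 had none. Of 11 tested genes of signalling below CXCR2, 1 was higher and 0 lower (median -0.095), near the share of higher genes among all tested. The higher gene was Rac2, a GTPase of blood cells, with a log2 fold change of 1.51 (adjusted p = 0.013) over a control mean of 1.35 CPM. Its call was lost without control sample 1 or IL-1β sample 2 (adjusted p up to 0.135). Rac2 had 8, 20 and 15 reads in controls and 30, 55 and 34 after IL-1β, and passed the filter through the IL-1β group.

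Among regulators of these chemokines, every called gene was higher, where 6.97% of all genes tested were higher and 6.44% lower. Of 22 tested genes that act on their transcription or mRNA stability, 10 were higher and 0 lower, with a median log2 fold change of 0.38. With 1 sample left out, from 8 to 11 of them were higher. Nfkbia, the inhibitor IκBα and itself an NF-κB target, rose from 269.0 to 780.4 CPM, a log2 fold change of 1.54 (SE 0.064, adjusted p = 3.2e-15). Cebpd, a C/EBP factor of the acute phase, rose with a log2 fold change of 2.27 (adjusted p = 2.3e-13). Tnfaip3, which encodes the NF-κB inhibitor A20, rose with a log2 fold change of 2.87 (adjusted p = 1.2e-12), and its partner Tnip1 with 1.20 (adjusted p = 9.4e-11). Of 8 tested genes of the IL-1 receptor list, 4 were higher and 0 lower (median 0.63). These were the receptor Il1r1 with a log2 fold change of 2.06 (adjusted p = 6.3e-15), the receptor antagonist Il1rn with 1.52, and the IL-1 receptor-associated kinase family members Irak3 with 2.24 and Irak2 with 0.28. The call of Irak2 was lost without control sample 1 or 2 or IL-1β sample 1 or 3 (adjusted p up to 0.0932).

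Of 11 tested genes of neutrophil growth, recruitment and adhesion, 8 were higher and 0 lower, with a median log2 fold change of 0.82, where 6.97% of all genes tested were higher. The 8 include Csf3 and S100a8, which had no control read and passed the filter through the IL-1β group, so they could be called in no other direction. Csf3, the granulocyte growth factor G-CSF, had 0 reads in every control and 83, 99 and 121 after IL-1β, at least 104.5-fold higher (against 3 counts over the control group). Lcn2, an iron-sequestering protein of neutrophil granules that hepatocytes make in the acute phase, rose with a log2 fold change of 2.01 (adjusted p = 1.4e-16). C3, the complement component, rose with 0.82 (adjusted p = 9.8e-11), and the macrophage growth factor Csf1 with 0.95 (adjusted p = 7.2e-08). S100a8, chosen after its values were seen, had 0 reads in every control and 19, 36 and 51 after IL-1β, at least 36.1-fold higher, and its partner S100a9 had 0 reads throughout.

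Markers of cells other than hepatocytes were read beside these changes. Of 11 neutrophil genes listed, Mpo, Elane, Ngp, Ltf and Retnlg had no read in any library, and none had enough reads to pass the filter. Without a filter, edgeR called Itgam higher, with a log2 fold change of 4.50 (adjusted p = 0.011), and no other gene of the list. The 11 genes summed to between 0.101 and 0.537 CPM in controls and between 2.02 and 2.42 CPM after IL-1β, mostly from Itgam (0, 1 and 0 reads, then 6, 9 and 15) and Prtn3 (1, 3 and 1 reads, then 6, 9 and 5). Kupffer cell and macrophage genes summed to between 248 and 280 CPM in controls and between 254 and 287 CPM after IL-1β, and 0 of the 11 tested passed the test (median log2 fold change 0.31). Without control sample 1, 2 of the list were called higher, C1qa and Cd74. Cd68, Ctss, Cd5l and Cd74 were the most abundant of them. Endothelial genes summed to between 73.6 and 81.8 CPM and between 72.8 and 77.4 CPM, with 1 higher and 2 lower of 7 tested (median -0.31). Lyve1 was higher (log2 fold change 0.45), and its call was lost without control sample 1 or 3 or IL-1β sample 2 or 3. Kdr (-1.49) and Clec4g (-2.87) were lower, and Clec4g passed the filter through its counts in the controls. Stellate cell and fibroblast genes summed to between 20.3 and 24.9 CPM and between 21.1 and 27.1 CPM, with 0 of 2 tested called (median 0.33). Cholangiocyte genes summed to between 316 and 329 CPM and between 236 and 240 CPM, with 1 lower of 2 tested (median -0.49). Nearly all of this sum came from Sox9, at 133.7 CPM in controls and 154.6 CPM after IL-1β (adjusted p = 0.0519), and Spp1, which fell from 189.8 to 82.7 CPM. The defining genes Krt19, Krt7, Epcam and Cftr had means of at most 0.345 CPM in either group. T and B cell genes summed to at most 0.101 CPM. Of the 13 hepatocyte markers tested, 1 was higher and 10 lower (median -0.33), where 6.97% of all genes tested were higher and 6.44% lower. By limma with a pseudocount of 1, 0 of these markers were higher and 4 lower. The part of each cell type in the chemokine reads was not tested.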

How the data were processed

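The data are QuantSeq 3′ mRNA-Seq libraries (single-end reads of 75 nt) of 6 hepatocyte samples, grouped by their labels. The authors aligned reads with Bowtie2 (mm10/GRCm38 in the submitters' processing notes) and normalized with edgeR. The counting tool and the handling of strand and of reads that match several genes are not given in the sources used here. The authors deposited raw read counts per gene and log2 values of TMM-normalized CPM plus 1. They also deposited their own comparison, a linear ratio and an unadjusted p-value, and log2 group averages, none of which was used. The deposited description names 2 samples per group and lists 3, all of which were used.

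The tests ran on the counts in edgeR 4.0.16 under R 4.3.3 (filterByExpr, TMM, quasi-likelihood test, Benjamini-Hochberg over 11657 genes), after a trial on simulated data. Exact permutation tests used scipy 1.17.1 on log2(CPM + 1). Counting intervals are at 95%. Promoters were read from a RefSeq table and transcripts from GENCODE. Alternatives were DESeq2 1.42.0, limma 3.58.1 (pseudocounts of 1 and 0.1), an unmoderated Student-type test, other scalings and filters, other thresholds, a replicate block and leaving out each sample. Division of reads by length was added after the data were seen.

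Control and IL-1β samples of equal replicate number did not deviate together (correlations of deviations 0.075, 0.027 and -0.0050), and were not treated as pairs. Members and the 8 pathway and 8 marker lists were chosen with earlier results of these data known. Named are all members, called neighbours and the 5 genes most like the ligands. Of each pathway list, at most the 4 tested genes with the smallest adjusted p are named. Of some marker lists, the 4 most abundant genes or defining genes at 0 are named. A few other genes are named where a count of 5 or fewer or a sum rests on them, chosen after their values were seen. An item that the rule would name is not reported here.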

Additional observations from a re-analysis of the deposited data

How the results depend on the processing

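The direction and the call of Cxcl2, Cxcl3, Cxcl5 and Pf4 held under every alternative in which they could be tested. Cxcl1 kept its direction and lost its call with Student's test on log2(CPM + 1), at 1.38 (adjusted p = 0.0517). When any 1 sample was omitted, log2 fold changes stayed from 1.20 to 1.53 in Cxcl1, 3.43 to 3.97 in Cxcl2, 3.996 to 4.94 in Cxcl3, 6.65 to 7.26 in Cxcl5 and 4.25 to 5.65 in Pf4. That of Cxcr2, never called, went from -0.028 (without control sample 1) to 1.19. A minimum of 10 counts in every sample left 3 members called, since Cxcl3 and Pf4 then could not be tested. In a fit with replicate as a block, log2 fold changes were 1.38, 3.69, 4.46, 6.97 and 4.83 for Cxcl1, Cxcl2, Cxcl3, Cxcl5 and Pf4, and no call of a member changed.

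Of all genes, 931 were called by limma with a pseudocount of 1 (496 higher, 435 lower), 802 with 0.1 (430 and 372), 547 by Student's test (317 and 230), 996 at an adjusted p below 0.01 (537 and 459) and 395 with at least a 2-fold change (219 and 176). Of the pathway list genes, 28 were higher and 6 lower. The 28 became 14 with a 2-fold change. The 6 became 3 by limma with 0.1, 1 by Student's test, 3 at 0.01 and 3 with a 2-fold change, and from 2 to 6 with a sample left out, the 2 without IL-1β sample 2. Divided by length, the share of Cxcl5 was 3.44% in controls and 59.7% after IL-1β. The causes were not tested. At 3 counts over a group, levels of Ppbp and Cxcl15 up to 0.0945 CPM in controls and 0.0983 CPM after IL-1β would go undetected.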

Other observations

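Among proteases and matrix anchors that act on chemokines, 13 genes were tested, with 3 higher, 2 lower and a median log2 fold change of -0.14. The shares over all genes tested were 6.97% higher and 6.44% lower. Sdc4, a heparan sulfate proteoglycan that can hold chemokines at the cell surface, rose with a log2 fold change of 0.48 (edgeR, adjusted p = 3.3e-05). Adam17, a sheddase of membrane proteins, had 0.50 (adjusted p = 5.3e-05) and Mmp12, a macrophage elastase, 1.27 (adjusted p = 0.00033). Dpp4, a peptidase that trims the N-terminus of several chemokines, fell by 0.82 on the log2 scale (adjusted p = 0.011). Mmp14, a membrane-bound protease named after its values were seen, fell by 0.25 (adjusted p = 0.025). Both calls were lost without IL-1β sample 1 or 2, and that of Mmp14 also without control sample 2, with adjusted p up to 0.103 for Dpp4 and 0.171 for Mmp14, and both were lost with limma and at 0.01. Of the epidermal growth factor ligands that follow the chemokine cluster on the chromosome, 3 were tested, with 0 higher, 2 lower and a median of -0.68. Btc fell from 29.9 to 14.4 CPM (adjusted p = 5.8e-06) and Areg from 13.4 to 8.38 CPM (adjusted p = 0.014), whose call was lost without control sample 1 or IL-1β sample 2 or 3 (adjusted p up to 0.0646).

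The 5 genes most like the sum of the ligands over the 6 samples, of 8179 compared, were Rab32, Ccrn4l, Hif1a, Saa3 and Vnn3, each with a Pearson r of 0.999 on the log2(CPM + 1) scale. The 6 points fall into the 2 groups, and r is given as a description only. Saa3, an acute-phase protein, rose from 1100.4 to 17896 CPM, a log2 fold change of 4.02 (adjusted p = 1.1e-17 from edgeR). Vnn3, a vanin family member, rose from 151 to 1030 CPM, and Hif1a, a hypoxia-inducible transcription factor subunit, from 80.3 to 270 CPM. Rab32, a small GTPase, rose from 35.7 to 101.3 CPM and Ccrn4l, which encodes nocturnin, from 19.4 to 66.9 CPM.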
